A study of Mus musculus with 12 samples.

Results

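Reprogrammed mammary epithelial cells were compared with adult mammary epithelial cells by microRNA (miRNA) array. The comparison rests on the 6 arrays whose titles carry the mammary label, out of 12 in the series: 3 of mouse mammary epithelial cells (replicates 1, 2 and 4) and 3 of mouse reprogrammed mammary epithelial cells (replicates 1, 2 and 4). The other 6 arrays, 3 of adult lung and 3 of reprogrammed lung epithelial cells, entered the fit and give the values under the other tissue label. Per the labels' protocols, the adult donors were female mice aged 10 weeks. The mammary glands were minced, digested with trypsin and collagenase, and enriched for epithelium by differential centrifugation, repeated 5 times. Single cells were then suspended in Matrigel for transplantation. For adult lung cells the centrifugation was repeated 7 times, and no number is given for the reprogrammed cells. The protocol names no cell sort, no strain and no pooling, and the sources used here do not say how the reprogrammed cells were recovered. The protocol also describes embryonic lung tissue parted into epithelium and mesenchyme, and no sample is labelled as either. The series title speaks of organ regeneration in vivo by reprogramming that depends on the stroma. Whether "reprogrammed mammary" names the cells' origin or the fate they took on is not settled by the labels and remains undecided here. No label ties the replicates to different animals, so each p-value reflects the scatter of these samples alone, and that scatter may be technical.

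MiRNAs are short RNAs that guide Argonaute proteins to complementary sites in messenger RNAs and lower their translation or stability. They are cut from hairpin precursors, and those of one family share a seed near the 5′ end that sets their targets. In the mammary gland, miRNAs are known to take part in keeping luminal and basal epithelial cells apart and in the changes of pregnancy and lactation. The arrays name their probes by serial numbers (UCSF034_000001 and so on). The tables used here do not pair these with miRNAs, so 0 members of the 14 miRNA and cell-type lists could be found, no mature sequence is printed, and the tissue label could not be checked against marker miRNAs. Probes are therefore described by number and by their behaviour.

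The reprogrammed mammary arrays were dimmer and detected fewer probes. Brightness, the 75th percentile of processed signal over 631 probes detected (well above background) on each of the 12 arrays, was 1335, 1522 and 1423 for adult mammary replicates 1, 2 and 4. It was 867, 855 and 805 for reprogrammed mammary replicates 1, 2 and 4. The groups did not overlap, and the adult mean was 1.69 times the reprogrammed mean. The number of probes well above background was 788, 816 and 830 in adult mammary and 725, 773 and 700 in reprogrammed mammary cells, again without overlap. For both measures an exact two-sided permutation test gave p = 0.1, the smallest that 3 arrays against 3 allow. In such bulk samples fewer cells of a type, less RNA per cell and differences in RNA input or array handling cannot be told apart. Signals were scaled to equal brightness before testing, so all changes below are relative to it. The number of arrays limits the precision.

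The 6 arrays lay on 3 slides, each of which held 1 adult and 1 reprogrammed mammary array beside lung arrays. Slide was read from the numeric code in the deposited scan names, not from the sample labels. Adult replicate 1 shared slide 1 with reprogrammed replicate 4. Adult replicate 4 shared slide 2 with reprogrammed replicate 2, and adult replicate 2 shared slide 3 with reprogrammed replicate 1. Reprogrammed mammary replicate 4 stood apart. Its correlation with the adult mammary arrays, across 631 probes of log2 signal, ran from 0.925 to 0.940, while reprogrammed mammary replicate 1 correlated with them at 0.968 to 0.972. It also carried 345 spots marked as outliers by the scanner software, the most of the 12 arrays (164 at the fewest). Within the groups the array correlations ran from 0.968 to 0.982 for adult mammary and from 0.962 to 0.989 for reprogrammed mammary cells. Probes share the array they were read on, so these correlations are descriptions.

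Of the 2579 probes on the array, 947 were well above background on at least 3 of the 12 arrays and were tested. Of these, 64 were higher (6.76%) and 21 lower (2.22%) in reprogrammed mammary than in adult mammary cells, together 8.98% of the probes tested (limma, Benjamini-Hochberg adjusted p under 0.05). The higher probes changed by a median of 1.36 on the log2 scale (range 0.39 to 3.27), and the lower ones by a median of -0.79 (range -1.31 to -0.45). Over all tested probes the median was 0.01. The authors' deposited table holds 57 of the 64 higher probes and 6 of the 21 lower ones. Higher calls were larger: 39 of the 64 rose more than 2-fold and 10 more than 4-fold, while 6 of the 21 lower probes fell more than 2-fold. Of all 947 tested, 97 (10.2%) changed more than 2-fold in either direction and 11 (1.16%) rose more than 4-fold. All 85 called probes had groups of arrays that did not overlap, as had 29.5% of all probes tested. The split by direction moved with the scaling, the signal summary and the background correction. Scaling on the probes of the authors' table alone gave 42 higher and 43 lower. The scanner software's total gene signal gave 53 and 33, normexp background correction 457 and 17, and no scaling 21 and 257. The median change of all probes was -0.15, -0.09, 0.44 and -0.58 in these 4 settings. Of the 64 higher probes 59 stayed above 0 with no scaling, and of the 21 lower ones 18 stayed below 0 with the total gene signal and 12 after normexp.

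**Figure D1:**
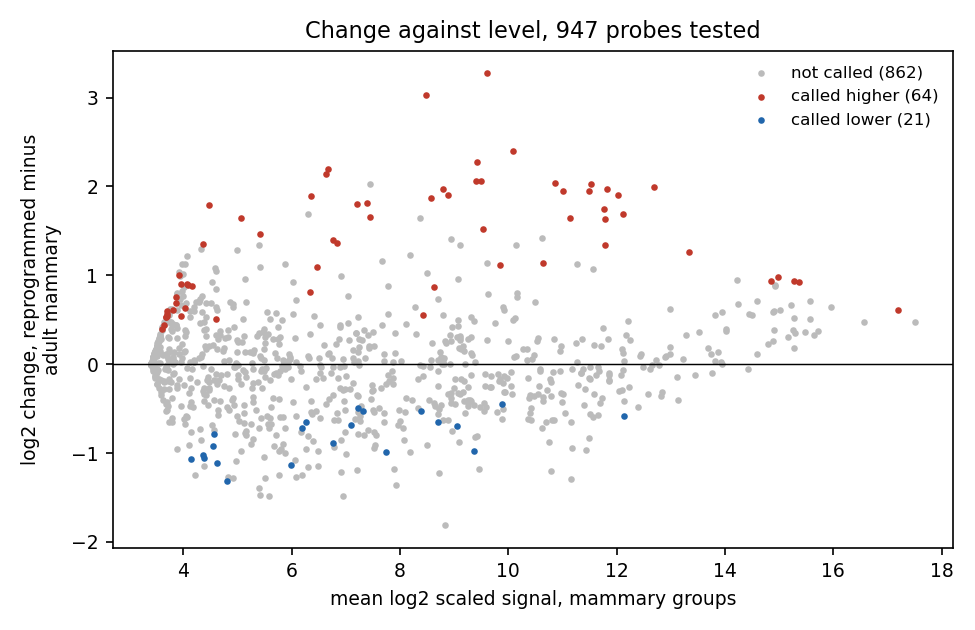
Log2 change (reprogrammed minus adult mammary) of each of 947 probes against its mean log2 scaled signal over the 6 mammary arrays, with 64 probes called higher in red and 21 called lower in blue. The called probes above 0 reach 3.27, and those below 0 reach -1.31.

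UCSF034_000782 showed the largest rise. Its log2 scaled signal was 7.55, 8.0 and 8.36 in adult mammary replicates 1, 2 and 4, and 10.75, 10.48 and 12.50 in reprogrammed mammary replicates 1, 2 and 4. All 3 reprogrammed arrays lay above all 3 adult arrays, and replicate 4 lay well above the other 2. The means were 7.97 ± 0.40 and 11.24 ± 1.1 (SD, n = 3). The change was 3.27 ± 0.73 on the log2 scale (SE), or 9.67-fold, with an adjusted p of 0.0238 (limma). Within slides 1, 2 and 3 it was 4.95, 2.12 and 2.75, and with slide as a fixed block the adjusted p was 0.0308 (limma). Without reprogrammed mammary replicate 4 the change was 2.64 and the adjusted p 0.0845 (limma).

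UCSF034_002172 followed the same order over the arrays. On the log2 scale its signal was 6.44, 7.02 and 7.43 in adult mammary replicates 1, 2 and 4, and 9.52, 9.25 and 11.20 in reprogrammed mammary replicates 1, 2 and 4. The groups did not overlap, adult replicate 1 was lowest and reprogrammed replicate 4 highest. The change was 3.03 ± 0.63 (SE), or 8.15-fold, with an adjusted p of 0.0213 (limma). On slides 1, 2 and 3 it was 4.76, 1.82 and 2.5. Leaving out reprogrammed mammary replicate 4 gave 2.42, with an adjusted p of 0.0678 (limma). For both probes the call also ended without adult mammary replicate 1 or 2.

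UCSF034_000322 fell most among the called probes with 6 or more spots that were well above background on all 6 arrays. Adult mammary replicates 1, 2 and 4 gave log2 scaled signals of 9.83, 9.99 and 9.77, and reprogrammed mammary replicates 1, 2 and 4 gave 9.06, 8.91 and 8.70. The highest reprogrammed array lay below the lowest adult array, and the arrays of each group lay close together. The change was -0.97 ± 0.16 (SE), a ratio of 0.509, with an adjusted p of 0.0125 (limma). It was nearly even over the slides, at -1.13, -0.86 and -0.93. The probe stayed past the threshold when any single array of the 12 was left out, and in the authors' deposited table its change was -1.24 with an adjusted p of 0.00288 in a limma fit of those values.

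UCSF034_000778, the second fall under the same rule, was smaller and less firm. Its log2 scaled signal was 6.54, 6.71 and 6.53 in adult mammary replicates 1, 2 and 4, and 5.79, 6.28 and 5.77 in reprogrammed mammary replicates 1, 2 and 4. The groups did not overlap, and reprogrammed replicate 2 came nearest to the adult arrays. The change was -0.65 ± 0.17 (SE) with an adjusted p of 0.0453 (limma), and -0.76, -0.25 and -0.92 on the 3 slides. After normexp background correction it was 0.04, on the other side of 0 (adjusted p = 0.798, limma). Over all settings tried the adjusted p ran from 0.00284 to 0.798.

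**Figure D2:**
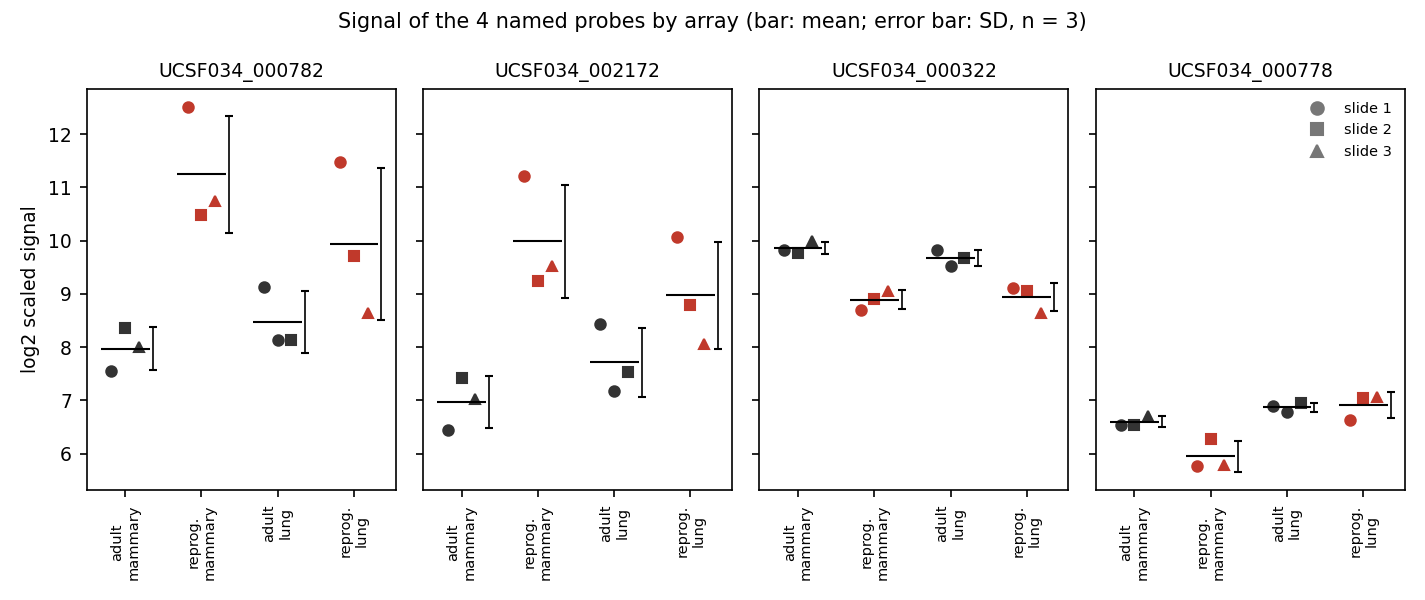
Log2 scaled signal of UCSF034_000782, UCSF034_002172, UCSF034_000322 and UCSF034_000778 on each of the 12 arrays, with slide shown by marker shape, a bar at the group mean and an error bar of 1 SD (n = 3). The first pair of probes is highest on reprogrammed mammary replicate 4 (12.50 and 11.20), and UCSF034_000322 is below 9.1 on all 3 reprogrammed mammary arrays.

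The higher probes varied together over the arrays. Reprogrammed mammary replicate 4 had the highest signal of its group for 54 of the 64, against 38.2% of all tested probes, and adult mammary replicate 1 alone had the lowest of its group for 41 of the 64, against 35.5%. Among the 39 that rose more than 2-fold, reprogrammed replicate 4 was highest for 38. The median log2 signal of the 64 was 6.33, 6.91 and 7.14 in adult mammary replicates 1, 2 and 4, and 8.47, 8.20 and 8.98 in reprogrammed mammary replicates 1, 2 and 4. Every reprogrammed array was above every adult one, as the choice of the list sets. For the lower probes reprogrammed replicate 4 was lowest of its group for 14 of 21, against 36.01% of all tested, and adult replicate 1 alone highest of its group for 15 of 21, against 34.0%. Both arrays lay on slide 1.

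**Figure D3:**
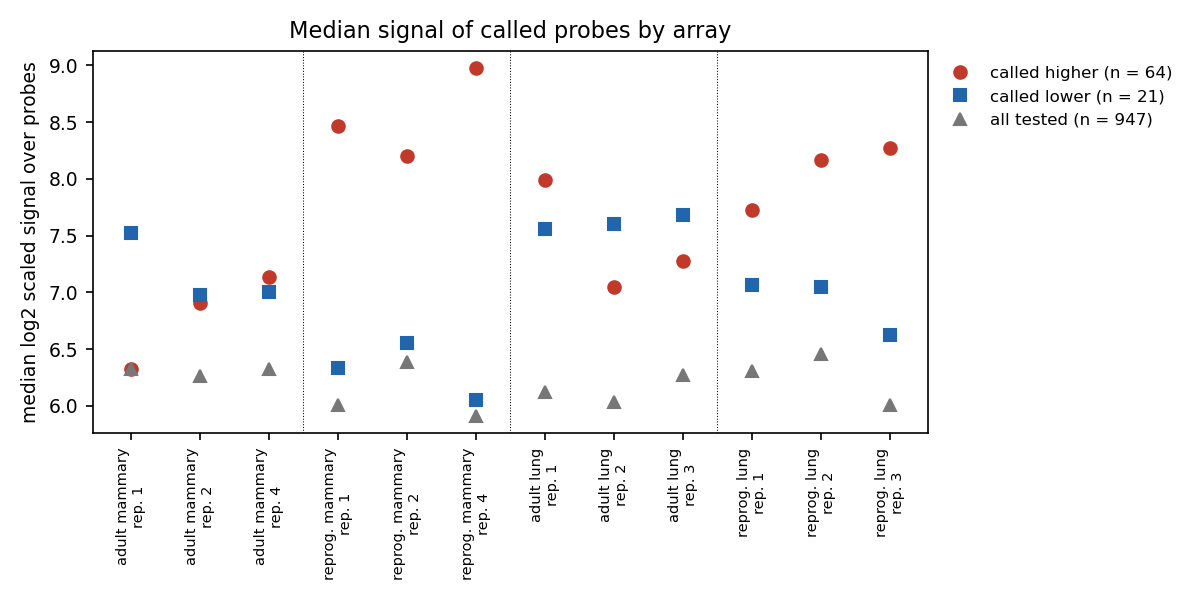
Median log2 scaled signal on each array over the 64 probes called higher (red), the 21 called lower (blue) and all 947 tested (grey triangles). The red points of the reprogrammed mammary arrays lie between 8.20 and 8.98 and those of the adult mammary arrays between 6.33 and 7.14.

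Changes were larger on slide 1 than on the other slides. Across the 947 probes the SD of the change was 1.07 on slide 1, 0.66 on slide 2 and 0.67 on slide 3, and 264, 109 and 124 probes differed more than 2-fold. The 64 higher probes had median changes of 2.13, 1.01 and 1.15 on slides 1, 2 and 3, and the 21 lower ones -1.08, -0.62 and -0.64. Slide 1 gave the largest rise for 53 of the 64, and its change lay above those of the other slides for 41.7% of all tested probes. Across probes the changes on slides 1 and 2 correlated at r = 0.41, on slides 1 and 3 at 0.47 and on slides 2 and 3 at 0.39 (947 probes each). These points share arrays and their brightness, and the values carry no test. All 85 called probes had the same sign on all 3 slides, as groups that do not overlap must, and so had 43.5% of all probes tested. A fixed block for slide gave 77 calls (limma), 53 of the 64 higher and 14 of the 21 lower ones among them.

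The number of calls depended on single arrays and on the lung arrays in the fit. Without reprogrammed mammary replicate 4, 31 were called, 26 were called without adult mammary replicate 1, and 30 without adult mammary replicate 2. Without both mammary arrays of slide 1 limma called 1 probe, UCSF034_002505 (172 probes at an unadjusted p under 0.05), and all 64 higher and 21 lower probes kept their sign. With only the 6 mammary arrays in the fit 0 probes passed in limma, though 220 had an unadjusted p under 0.05. The part of slide 1 in the result beyond these values was not tested.

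**Figure D4:**
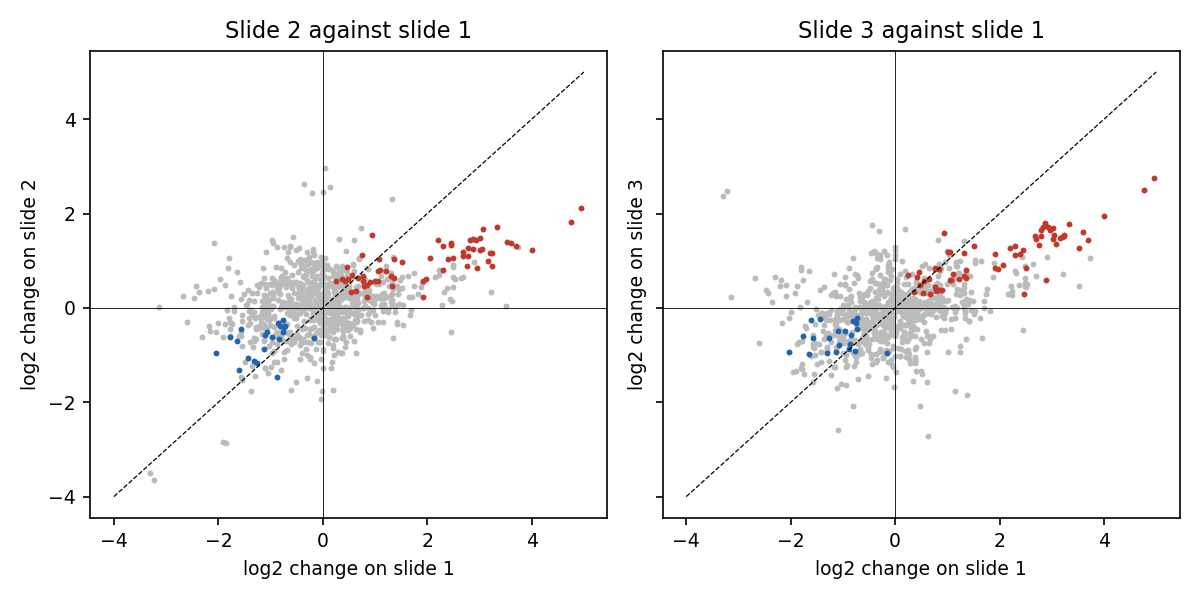
Log2 change (reprogrammed minus adult mammary) of 947 probes on slide 2 (left) and slide 3 (right) against that on slide 1, with called probes in red (64 higher) and blue (21 lower) and a dashed line of equal change. Most red points lie below the line: their median change was 2.13 on slide 1, 1.01 on slide 2 and 1.15 on slide 3.

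UCSF034_002505 had the smallest p in the comparison. The log2 scaled signal was 3.97, 3.59 and 3.52 in adult mammary replicates 1, 2 and 4, and 5.17, 5.06 and 4.91 in reprogrammed mammary replicates 1, 2 and 4. The groups lay far apart, and here replicate 4 was the lowest of its group. The change was 1.35 ± 0.13 (SE), or 2.56-fold, with an adjusted p of 0.00183 (limma), and 0.94, 1.54 and 1.58 on the slides. The adult values sit near the floor of 3.41 set on the log2 signal, so the size depends on the floor and the scaling. In the authors' deposited table the change was 0.49 with an adjusted p of 0.0249 in a limma fit.

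Higher calls came from all signal levels, though unevenly. Among the 237 dimmest tested probes (mean log2 signal up to 4.12) 16 were called higher and 0 lower. These levels start at the floor of 3.41, which leaves little room for a fall, so the absence of lower calls there carries no weight. Scaling multiplied reprogrammed mammary signals by 1.68 to 1.81 and adult mammary ones by 0.96 to 1.09. At double the floor 35 of the 64 higher probes stayed called. The part of scaling and floor in the rises of dim probes was not tested. The next 237 (up to 6.09) held 6 higher and 8 lower calls, and the following 236 held 16 and 10. Among the 237 brightest (above 9.22) 26 were higher and 3 lower. Over all tested probes 6.76% were called higher and 2.22% lower. Of the 64 higher probes 50 (78.1%) were well above background on all 6 arrays, against 69.3% of all tested, and 3 on none of them. No fold is given for these 3, which were not well above background in either group and were tested through the lung arrays. The 50 had a median change of 1.64. Of the 21 lower probes 14 (66.7%) were well above background on all 6 arrays, near the 69.3% of all tested.

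Detection was lost more often than gained in reprogrammed mammary cells, on arrays that were also dimmer. Of the tested probes 656 were well above background on all 6 mammary arrays. A further 20 (2.11% of the 947 tested) were so on all 3 adult and on no reprogrammed mammary array, and 0 the other way. Their adult mammary levels were low, between 3.61 and 4.95 on the log2 scale. For 11 of the 20 a bound over 1 could be computed, between 1.01-fold and 1.99-fold. Each bound sets the adult mean against a mean over the reprogrammed arrays, taking on each the probe's own signal or the dimmest detected one, whichever was larger. The 20 were picked for detection on the adult arrays alone, and that choice favours a fall. Of the 20, 1 passed the threshold: UCSF034_000234, with 1 spot, with a bound of 1.66-fold lower in reprogrammed mammary cells. The adjusted p of its change was 0.0125 (limma). The bounds are point values without an SE. The probe with the bound of 1.99-fold had an adjusted p of 0.220 (limma).

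The 2 directions differed in the kind of probe. Probes with 1 spot per array made up 15 of the 21 lower calls and 3 of the 64 higher ones, though they are 16.6% of the probes tested. As a class, the 157 tested probes with 1 spot had a median change of -0.41, and 124 of them were below 0. The 754 probes with 6 or 7 spots had a median change of 0.05, with 57 called higher and 6 lower, and the 36 with 5 spots had a median of 0.47. On slides 1, 2 and 3 the 1-spot probes had medians of -0.75, -0.15 and -0.25. A value from 1 spot is not averaged within the array. Of the tested probes, the authors' table holds only those with 6 or 7 spots. The 15 lower calls with 1 spot, UCSF034_000234 and UCSF034_000257 among them, are therefore not in it, while the other 6 lower calls are. The 6 lower probes with 6 or 7 spots fell by a median of 0.62 on the log2 scale.

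Serial number also went with the change, a feature looked at after the values were seen. Serial number and spot number are not separate features: all tested probes with 1 or 5 spots have numbers below 310. Among the probes with 6 or 7 spots, numbers 310 to 1500 held 524 tested probes, of which 11 were called higher (2.10%) and 6 lower. Numbers 1501 to 2579 held 230 tested probes, of which 46 were called higher (20%) and 0 lower, against 6.76% called higher over all tested. The median change was -0.01 in the first block and 0.39 in the second. In the second block it was 0.63, 0.29 and 0.18 on slides 1, 2 and 3. Fewer of the probes in the second block were tested, 230 of 1079 against 524 of 1191, and their median log2 signal over the 12 arrays was 4.76 against 5.80. On arrays that share none of the mammary samples, the same block had 68 of 230 probes called higher in reprogrammed than in adult lung cells (29.6%), against 20.2% of all tested. The sources used here do not say what the numbering stands for.

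The called probes were followed into the lung arrays, which share no sample with the mammary groups but lie on the same 3 slides. Unlike the mammary groups, the lung groups were not balanced over the slides. Adult lung replicates 1 and 2 lay on slide 1 and replicate 3 on slide 2. Reprogrammed lung replicates 1, 2 and 3 lay on slides 3, 2 and 1. Among the lung arrays too the reprogrammed ones were dimmer without overlap. Their brightness was 1680, 1267 and 1627, against 2308, 2278 and 2963 in adult lung cells. The part of brightness and slide in what both tissue labels share was not tested. All 64 higher probes had a change above 0 between reprogrammed and adult lung cells, as had 60.1% of all tested, and the median was 0.76 against 0.14. Of the 64, 25 were called higher in reprogrammed lung cells (39.1% of the 64 and 13.1% of the 191 called higher there) and 0 lower, beside 20.2% of all tested. Of the 21 lower probes 18 were below 0 in lung and 16 were called lower there (76.2% of the 21 and 11.3% of the 141 called lower in lung), beside 14.9% of all tested. Both changes use the same estimate of the spread. Median log2 levels of the 64 were 6.79 in adult mammary, 8.5 in reprogrammed mammary, 7.48 in adult lung and 8.0 in reprogrammed lung cells. For the 21 lower probes they were 7.20, 6.32, 7.62 and 6.91 in the same order.

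UCSF034_000782 and UCSF034_002172 were also above adult lung in reprogrammed lung cells, but not past the threshold (adjusted p = 0.143 and 0.148, limma). UCSF034_000782 had 8.46 ± 0.58 in adult lung and 9.93 ± 1.43 in reprogrammed lung cells (log2, SD, n = 3). The highest of those reprogrammed lung arrays, replicate 3 at 11.47, was the one on slide 1, as was the highest reprogrammed mammary array. Of the adult arrays on slide 1, lung replicate 1 (9.13) was highest of its group. Lung replicate 2 (8.12) and mammary replicate 1 (7.55) were lowest of theirs. The change of UCSF034_000782 under the mammary label exceeded that under the lung label by 1.80 ± 1.03 (SE, adjusted p = 0.293, limma), and that of UCSF034_002172 by 1.77 ± 0.89 (SE, adjusted p = 0.238, limma). UCSF034_000322 had 9.68 ± 0.15 in adult and 8.94 ± 0.26 in reprogrammed lung cells (log2, SD, n = 3), a fall of 0.74 that differed from the mammary one by -0.23 ± 0.22 (SE, adjusted p = 0.546, limma). UCSF034_000778 had 6.87 ± 0.09 in adult and 6.91 ± 0.25 in reprogrammed lung cells (log2, SD, n = 3), and its difference of -0.69 ± 0.24 (SE) had an adjusted p of 0.101 (limma).

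The change under the mammary label was tested against the change under the lung label. The difference passed the threshold for 107 of 947 probes (11.3%, limma), 44 above 0 and 63 below. Both the lung and the mammary change enter this difference, from the same fit. A large change in either favours a call, so the shares that follow are partly built in. Of the 107, 105 were called between the lung groups, against 35.1% of all tested, and 4 (3.74%) between the mammary groups, against 8.98%. The 4 are UCSF034_002505, UCSF034_001215, UCSF034_000435 and UCSF034_000257, named because so few passed both tests. Of the 64 higher probes, which were chosen for their mammary change, UCSF034_002505 was the single one past the threshold of the difference.

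UCSF034_000435 was called in opposite directions under the 2 tissue labels. The log2 scaled signal was 12.11, 12.73 and 12.46 in adult mammary replicates 1, 2 and 4, and 11.77, 11.83 and 11.95 in reprogrammed mammary replicates 1, 2 and 4. Reprogrammed arrays lay below the adult ones without overlap, though adult replicate 1 came close. In lung cells it went from 11.25 ± 0.12 to 12.20 ± 0.04 (log2, SD, n = 3; adjusted p = 0.00166, limma). The difference of the changes was -1.54 ± 0.21 (SE, adjusted p = 0.00192, limma), and it stayed past the threshold in all 30 other settings. The mammary change alone, -0.59 ± 0.15 (SE, adjusted p = 0.0423, limma), fell short in 18 of 32 settings, slide as a fixed block among them (adjusted p = 0.0771, limma). In the authors' deposited table it was -1.05 ± 0.20 (SE, adjusted p = 0.0239, limma).

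UCSF034_000257, which has 1 spot per array and is not in the authors' table, had the same pattern. On the log2 scale its signal was 9.35, 9.03 and 8.72 in adult mammary replicates 1, 2 and 4, and 8.26, 8.40 and 8.49 in reprogrammed mammary replicates 1, 2 and 4. The groups did not overlap, and the lowest adult array lay close above the highest reprogrammed one. Lung means were 7.96 ± 0.14 in adult and 8.86 ± 0.19 in reprogrammed cells (log2, SD, n = 3; adjusted p = 0.00423, limma). The difference of the changes was -1.55 ± 0.24 (SE, adjusted p = 0.00375, limma). The mammary change of -0.65 ± 0.17 (SE, adjusted p = 0.0464, limma) fell short in 21 of 30 settings.

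UCSF034_001215 was called lower under both labels, and its change was further below 0 in lung cells. Its log2 scaled signal was 5.04, 4.98 and 4.62 in adult mammary replicates 1, 2 and 4, and 4.34, 3.45 and 3.78 in reprogrammed mammary replicates 1, 2 and 4. Replicate 1 was the single reprogrammed mammary array to detect it. In adult lung cells the mean was 6.03 ± 0.24 (log2, SD, n = 3), and on the 3 reprogrammed lung arrays it was not well above background and lay at the floor. The difference of 1.60 ± 0.31 (SE, adjusted p = 0.0110, limma) therefore depends on the floor and is not an exact size. The mammary change was -1.02 ± 0.22 (SE, adjusted p = 0.0228, limma), which is no exact size either, with 2 of 3 reprogrammed mammary arrays not well above background. It fell short of the threshold in 11 of 31 settings and turned in 1. At double the floor it was -0.45 (adjusted p = 0.0813, limma), in the authors' deposited table -0.43 (adjusted p = 0.0803, limma) and after normexp background correction 0.35 (adjusted p = 0.0648, limma).

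UCSF034_002505 rose more under the mammary label, by 0.86 ± 0.19 (SE, adjusted p = 0.0175, limma). Its adult lung mean of 3.41 was at the floor and its reprogrammed lung mean was 3.91 ± 0.09 (log2, SD, n = 3). The difference fell short of the threshold in 7 of 30 settings, the authors' table and normexp among them.

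**Figure D5:**
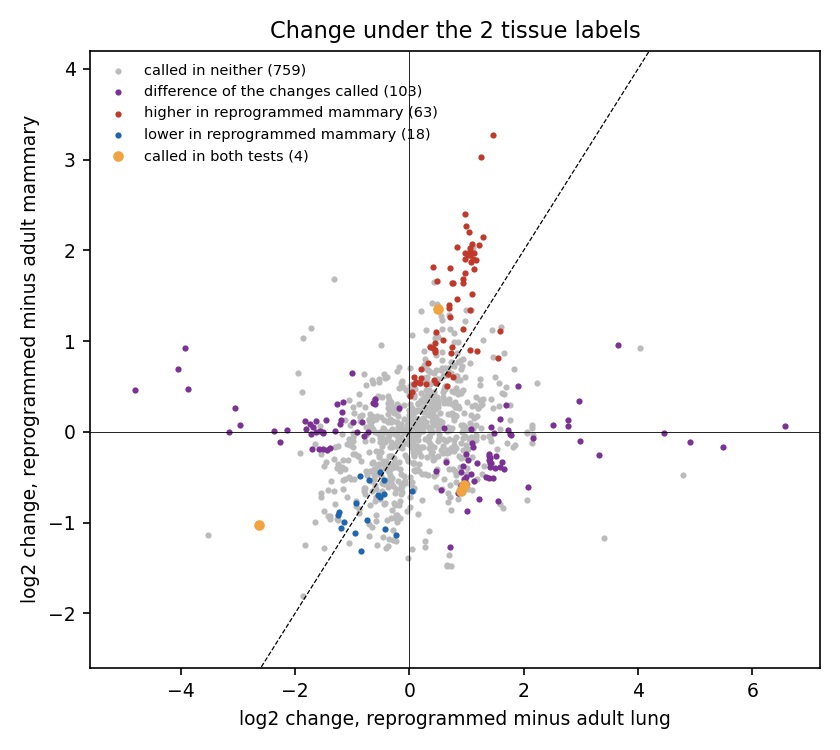
Log2 change in mammary cells (vertical axis) against log2 change in lung cells (horizontal axis), both reprogrammed minus adult, for 947 probes, with a dashed line of equal change. The 64 probes called higher in reprogrammed mammary cells all lie right of 0 on the lung axis, and 4 orange points mark the probes called in both tests.

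The authors' deposited table of log2 values was used as a check on 754 of the tested probes, those with 6 or 7 spots. A limma fit of it called 36 probes between the mammary groups (4.77%), 29 higher and 7 lower. Of the 57 higher scanner calls that the table holds, 56 had a change above 0 there and 29 were called, and of the 6 lower ones all had a change below 0 and 3 were called. In that table UCSF034_000782 changed by 3.09 ± 0.66 (SE, adjusted p = 0.0290, limma) and UCSF034_002172 by 2.65 ± 0.53 (SE, adjusted p = 0.0249, limma). UCSF034_000778 changed by -0.41 ± 0.08 (SE, adjusted p = 0.0249, limma), and UCSF034_001215, at -0.43 ± 0.13 (SE), did not pass (adjusted p = 0.0803, limma). The authors' values of UCSF034_000782 in the deposited table were 7.87, 8.13 and 8.37 in adult mammary replicates 1, 2 and 4 and 10.70, 10.49 and 12.45 in reprogrammed mammary replicates 1, 2 and 4, in the same order over arrays as the scanner values.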

How the data were processed

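Cy3-labelled miRNA was hybridised to 1-colour Agilent arrays, 1 sample per array, per the labels' protocols. Each deposited scanner file gives the intensity of every spot, linear and background-subtracted by Agilent Feature Extraction, version 10.5.1.1 per the file headers of 11 files and 10.1 per the submitters' processing notes. The authors' table gives log2 values for 2270 probes. The sources used here do not say how it was made, and its scaling and centring stay unknown, while its direction was that of the scanner values. It has 0 columns of other samples.

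Of 15075 non-control spots, outliers were left out (164 to 345 per array) unless a probe had no other spot, and 0 were saturated. Signals were divided by the array's own 75th percentile, taken over 631 probes, brought to a common level, floored at 10.6 (log2 3.41) and averaged as log2 over the spots of a probe. The floor is the 5th percentile of the spots well above background, as a median of the arrays. A probe was well above background where a share above 0.5 of its spots was. The 947 probes (of 2579) detected on at least 3 arrays were tested with limma 3.58.1 in R 4.3.3 (4 group means, no block, 8 residual and 1.54 prior degrees of freedom, threshold 0.05). SE is that of the fit. Named were the 2 largest rises and 2 largest falls among called probes with no overlap, 6 or more spots and detection on all 6 mammary arrays, and, chosen after their values were seen, UCSF034_000234 and the 4 probes called in both tests. No 2 of the 6 files held identical values. The fit was also run on simulated data with independent noise for each probe. That noise held no array or slide effect, so those runs do not cover probes that vary together over arrays. Alternatives covered scaling, background, filters, floor, blocks, weights and left-out arrays. Plots used matplotlib 3.10.9. The members and lists were chosen with earlier results of these data known.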

Additional observations from a re-analysis of the deposited data

Results flagged for a closer look

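The change under the mammary label differed from that under the lung label for 107 of the 947 probes tested (11.3%). This was a test of the difference itself (limma, adjusted p under 0.05). Of the 107, 105 were called between the lung groups, against 35.1% of all tested. Only 4 were called between the mammary groups, against 8.98%. Among probes also called between the mammary groups, the difference (mammary minus lung, log2) was -1.54 for UCSF034_000435, -1.55 for UCSF034_000257, 1.60 for UCSF034_001215 and 0.86 for UCSF034_002505. The last 2 values include arrays at the floor.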

How the results depend on the processing

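The count of 85 probes between the mammary groups (limma) stayed within 1.5 times in 8 of 20 other settings. It was 51 after quantile normalization, 278 with no scaling, 474 after normexp, 36 in the authors' table, 35 with no filter, 50 over probes detected on all 12 arrays, 56 at double the floor and 130 with array weights, a fit that stopped short of its convergence tolerance. It was 0 with only the 6 mammary arrays (220 at an unadjusted p under 0.05) and 0 with slide as a block there (186 at an unadjusted p under 0.05). It was 1 without both mammary arrays of slide 1, a setting added after the data were seen. Leaving out single arrays gave 26 to 95. The count of 107 for the difference of the changes was 58 with no filter, 67 over probes detected on all 12 arrays and 253 with array weights, and 69 (without adult lung replicate 2) to 149 (without adult mammary replicate 1) with 1 array left out. With replicate number as a block the counts were 56 and 76. The numbers did not pair the mammary arrays: deviations of same-numbered arrays correlated at 0.18, -0.29 and -0.23. The difference in detected probes per array was -98.8 to -62.3 with 1 array left out. After normexp the change of UCSF034_000778 was 0.044 and that of UCSF034_001215 0.35, and no other setting turned either. The causes were not tested. Normexp used the median spot signal, as the files hold no mean signal. Over their settings the adjusted p of UCSF034_000782 ran from 0.00322 to 0.224, of UCSF034_002172 from 0.00269 to 0.224 and of UCSF034_000322 from 0.00135 to 0.221. In 199 tested probes at least 1 mammary array was at the floor.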
